A study of Mus musculus with 31 samples.

Results

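Plasminogen activation and clotting regulators were followed in mouse kidney through 8 genes, of 23509 in the gene count files. They are named by a rule that uses roles and no measured value, written with earlier results of these data known. They are the plasminogen activators Plau and Plat, the urokinase receptor Plaur, the protease inhibitor Serpine2, tissue factor (F3), the thrombin receptor F2r, thrombomodulin (Thbd) and the protein C receptor Procr. All 8 were among the 15185 genes that passed the filter on low counts. RNA was sequenced from kidneys of 31 mice in 3 groups, to ask how gene expression differs in cystic kidneys and how an inhibitor of miR-17 changes it. The first group held 5 untreated male WT/CD1 mice (WT). The second held 12 Pcy/CD1 mice given PBS, and the third held 14 Pcy/CD1 mice given RGLS4326 subcutaneously at 25 mg kg-1 once monthly. Pcy/CD1 mice carry the Pcy mutation on the CD1 strain and form kidney cysts slowly, and RGLS4326 is a short oligonucleotide that binds the seed of the miR-17 family. Dosing started at 5 weeks of age and lasted 25 weeks, and all kidneys were taken at 30 weeks. The sample labels list PBS as weekly whereas the protocol text of the same labels reads monthly, and WT mice received no injections. The study describes the Pcy/CD1 mice as male too, and lists different suppliers for Pcy/CD1 and CD1 mice. The mutation, the supplier and the injections therefore cannot be told apart in comparisons with WT, and a WT group given RGLS4326 was not analysed here.

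Plasminogen activators cut the circulating zymogen plasminogen to plasmin, which dissolves fibrin and degrades extracellular matrix, and serpins such as Serpine2 stop them. Clotting starts when tissue factor meets its plasma ligand and ends in thrombin, which also signals to cells through F2r. Thrombomodulin and the endothelial protein C receptor turn thrombin toward activating protein C, an anticoagulant, and in healthy tissue both sit mainly on endothelium.

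Each kidney gave 14892524 to 27459962 counts in genes, and levels are given as CPM, a gene's counts relative to its library's TMM-scaled total. A gene was called where the adjusted p was under 0.05 and the log2 fold change exceeded 0.5 in size. The library names carry a running number that restarts within each group, which splits the libraries of each group into 3 index series. Series were numbered in order within each group, and those of the same number were taken as matching across groups. Whether they match, and what the series stand for, was not tested. WT mice 3 and 4 were the only WT libraries of index series 2 and resembled each other more than any other WT pair, with a chi-square of 2.44 per gene against 14.1 for the next pair, where counting noise alone gives about 1. The library labelled RGLS4326 mouse 9 stood near WT. Of the 6442 genes called between PBS and WT, 56.4% lay inside the WT range in that mouse, against 3.65% to 21.3% in the other 25 Pcy/CD1 mice. Whether its label holds was not tested, so every RGLS4326 mean, range or rank that includes this mouse carries that doubt. Calls of the 8 genes that change without mouse 9 or without WT mice 3 and 4 are given both ways.

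The seeds of the miR-17 family, which the drug binds, and their matches in the 3′UTRs of these genes are shown first. Mature sequences from RefSeq (GRCm38.p6) are shown 5′ to 3′ with the seed, bases 2 to 8, in capitals. All 4 shown share the seed.
mmu-miR-17-5p: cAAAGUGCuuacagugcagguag
mmu-miR-20a-5p: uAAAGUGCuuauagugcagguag
mmu-miR-93-5p: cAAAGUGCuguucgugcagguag
mmu-miR-106b-5p: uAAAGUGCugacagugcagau
The complement of the seed, GCACTTT, was searched on the transcript strand in the longest annotated 3′UTR of each gene in GENCODE vM21 (GRCm38). It was found in 2 of the 8 genes, F3 and F2r, once each, and in 12.3% of 19173 genes with a 3′UTR. The letters were not in the 3′UTR windows of Plau, Plat, Plaur, Serpine2, Thbd or Procr. The stretch shown for F3 lies at chr3:121734782-121734805 on the plus strand, and its match is an 8mer. That of F2r lies at chr13:95603411-95603434 on the minus strand, and its match is a 7mer-m8. Capitals mark GCACTTT, and the 8mer of F3 also takes the base A after it.
F3: acaatttaGCACTTTaactgacaa
F2r: gggaatctGCACTTTgacacattt
A match is a description of letters and not a measured binding site.

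Promoter letters are shown as a description, and any part of them in gene levels was not tested. RefSeq promoter windows (GRCm38.p6) were held for 5 of the 8 genes, F2r, F3, Plaur, Procr and Serpine2. All 5 were called higher with PBS than in WT. No window was held for Thbd or for Plau and Plat, which were not called, so called and uncalled genes cannot be compared. The 250 bases before each start were searched on both strands for 4 motifs. The AP-1 motif TGANTCA, which reads the same on both strands, was in 4 of the 5 windows and in 6.75% of 32851 promoters. Its matches are in capitals, and F3 held 2.
Procr: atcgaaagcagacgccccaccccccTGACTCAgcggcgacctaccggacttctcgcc
F3: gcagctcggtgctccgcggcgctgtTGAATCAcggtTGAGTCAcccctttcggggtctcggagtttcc
Plaur: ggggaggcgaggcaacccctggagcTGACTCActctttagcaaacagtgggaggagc
F2r: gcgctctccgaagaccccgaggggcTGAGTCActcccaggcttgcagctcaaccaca
The stretches run over chr2:155751038-155751094 (plus strand) for Procr, chr3:121723366-121723433 (plus) for F3, chr7:24462389-24462445 (plus) for Plaur and chr13:95618639-95618695 (minus) for F2r. The first base of the match lay 154 bases before the start in Procr, 146 and 135 in F3, 69 in Plaur and 204 in F2r. The Sp1 motif GGGCGG was in the windows of F2r, F3, Plaur and Serpine2 and in 32.7% of all promoters. The NF-kB motif was in Procr and in 4.11% of all promoters. The TEAD motif GGAATG was in 0 of the 5 and in 12.6% of all. No binding was measured.

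Receptors, inhibitor and thrombin-directed genes stood higher in PBS-treated Pcy/CD1 kidneys than in WT, whereas the activators Plau and Plat did not pass the test. Of the 8 genes, 6 were called higher and 0 lower, beside 24.6% of all genes tested called higher and 17.8% called lower. The median log2 fold change of the 8 was 0.90, against 0.01 over all genes tested. Every PBS value lay above every WT value for 4 of the 8 genes (Plaur, F3, Thbd and Procr), as it did for 20.3% of all genes. These are whole kidneys, where more cells of a type and more RNA per cell cannot be told apart.

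**Figure D1:**
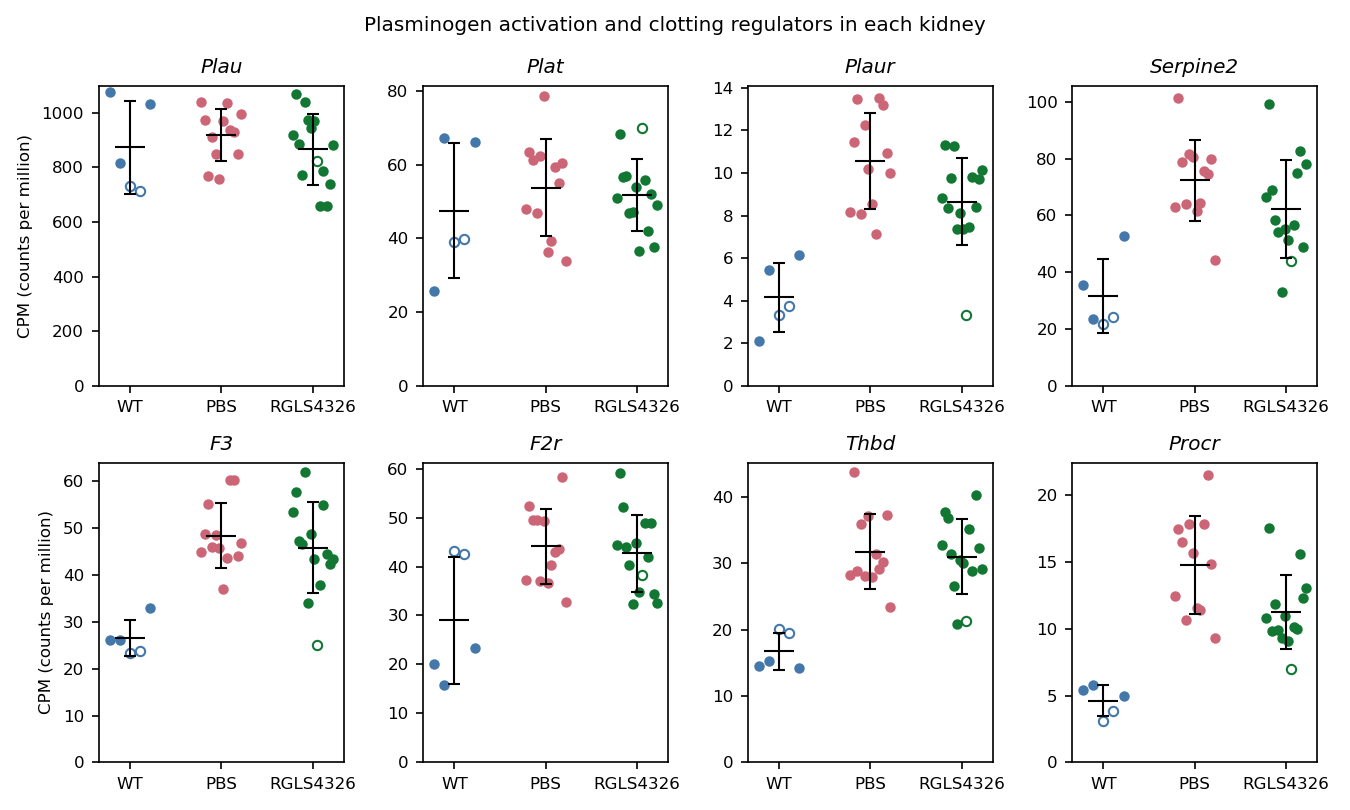
CPM of each gene (vertical axis, from 0, a separate scale per gene) in every WT, PBS-treated and RGLS4326-treated mouse. Each point is 1 mouse, bars are mean and SD, and open circles mark WT mice 3 and 4 and RGLS4326 mouse 9. Plaur, F3, Thbd and Procr of PBS-treated mice lie wholly above WT, and Plau and Plat overlap in all groups.

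Plau encodes urokinase, a plasminogen activator that tubules secrete, and lies on chromosome 14 (20836660 to 20843385, plus strand, GRCm38). It read 1077, 817, 731, 712 and 1032 CPM in WT mice 1 to 5. In PBS-treated mice it ran from 757 to 1041 CPM with a median of 933 CPM, and in RGLS4326-treated mice from 657 to 1067 CPM with a median of 883 CPM. No PBS-treated mouse lay outside the WT range. The log2 fold change of PBS against WT was 0.07 (SE 0.109, adjusted p = 0.558), with a 95% interval of −0.15 to 0.29.

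Plat encodes tissue plasminogen activator (chromosome 8, 22757727 to 22782844, plus strand). In WT mice 1 to 5 it read 25.8, 67.1, 38.9, 39.8 and 66.2 CPM. PBS-treated mice ran from 34.0 to 78.6 CPM (median 57.2 CPM) and RGLS4326-treated mice from 36.5 to 69.9 CPM (median 51.5 CPM). WT mice were spread more widely than the treated groups, with a coefficient of variation of 38.5% against 24.5% with PBS and 19.0% with RGLS4326. PBS against WT gave a log2 fold change of 0.18 (SE 0.186, adjusted p = 0.390), with an interval of −0.20 to 0.56.

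Plaur encodes the receptor that holds urokinase at the cell surface (chromosome 7, 24462484 to 24475968, plus strand). The 5 WT mice read 2.12, 5.47, 3.31, 3.75 and 6.14 CPM, from 36 to 102 counts. PBS-treated mice ran from 7.13 to 13.5 CPM with a median of 10.6 CPM. The groups did not overlap, and the log2 fold change was 1.35 (SE 0.220, adjusted p = 3.17e-06). Within index series 1 and 2 it was 1.44 and 1.45 (adjusted p = 0.00637 and 0.0150, edgeR's quasi-likelihood test), and series 3 held 1 WT mouse and was not fitted alone. The difference between the fold changes of Plau and Plaur was not tested.

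Serpine2 encodes protease nexin 1, an inhibitor of thrombin, urokinase and tissue plasminogen activator (chromosome 1, 79794197 to 79861180, minus strand). In WT it read 35.6, 23.6, 21.7, 24.3 and 52.9 CPM in mice 1 to 5. PBS-treated mice ran from 44.4 to 101.4 CPM (median 75.0 CPM), and 11 of 12 lay above the highest WT mouse. Serpine2 rose by a log2 fold change of 1.20 (SE 0.212, adjusted p = 1.0e-05), and it was 1.38 and 1.66 within index series 1 and 2.

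F3 encodes tissue factor, the cell-surface starter of clotting (chromosome 3, 121723537 to 121735048, plus strand). WT mice 1 to 5 read 26.1, 26.1, 23.4, 23.9 and 33.0 CPM. PBS-treated mice ran from 36.9 to 60.3 CPM with a median of 46.4 CPM, all above WT. F3 rose by a log2 fold change of 0.87 (SE 0.143, adjusted p = 3.34e-06), with 0.90 within both index series 1 and 2.

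F2r encodes protease-activated receptor 1, through which thrombin signals (chromosome 13, 95601803 to 95618487, minus strand). Levels in WT mice 1 to 5 were 20.1, 15.9, 43.1, 42.6 and 23.4 CPM. Mice 3 and 4 stood at about the level of the PBS-treated group, which ran from 32.8 to 58.3 CPM with a median of 43.4 CPM. The log2 fold change of PBS against WT was 0.61 (SE 0.178, adjusted p = 0.00311) over all mice. It was 1.39 (SE 0.175, adjusted p = 0.000354) within index series 1 and −0.05 (SE 0.153, adjusted p = 0.796) within series 2, where the WT libraries were mice 3 and 4. Without these mice it was 1.18 (SE 0.181, adjusted p = 5.04e-06), a choice made after their values were seen. Without WT mouse 2 it was 0.46 (adjusted p = 0.0205), under the threshold on size. By index series 1, 2 and 3, F2r ran over 37.3 to 52.3, 36.7 to 49.2 and 32.8 to 58.3 CPM with PBS. With RGLS4326 it ran over 44.0 to 59.1, 32.4 to 44.8 and 32.65 to 48.96 CPM. In WT mice 3 and 4 series and animal cannot be told apart, and the cause of their level was not tested.

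**Figure D2:**
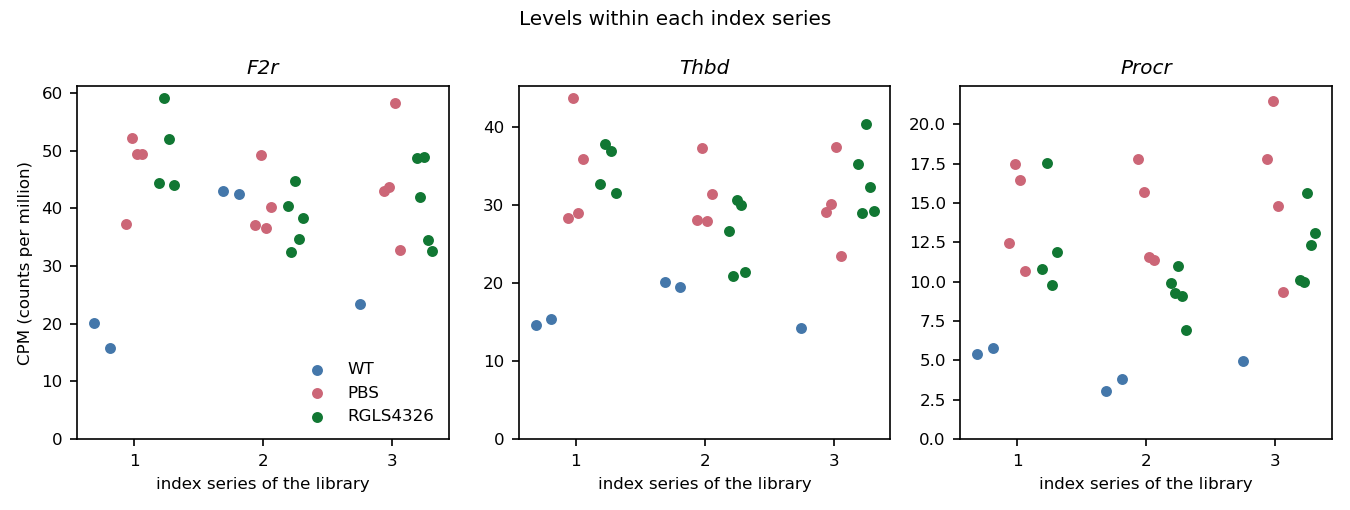
CPM of F2r, Thbd and Procr (vertical axis, from 0) in each mouse, by index series of the library (horizontal axis) and group (colour). In series 2 the F2r values of WT mice, 43.1 and 42.6 CPM, lie among those of the treated groups, while Thbd and Procr of WT mice lie below the treated groups in each series.

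Thbd encodes thrombomodulin, the thrombin-binding cofactor for protein C activation (chromosome 2, 148404466 to 148408188, minus strand). WT mice 1 to 5 read 14.6, 15.3, 20.1, 19.5 and 14.3 CPM. PBS-treated mice ran from 23.5 to 43.7 CPM with a median of 29.6 CPM, all above WT. Its log2 fold change was 0.92 (SE 0.141, adjusted p = 1.11e-06). It was 1.19 and 0.67 within index series 1 and 2 (adjusted p = 0.000693 and 0.0157), with WT mice 3 and 4 again the highest of their group.

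Procr encodes the endothelial protein C receptor, which presents protein C to the thrombin and thrombomodulin complex (chromosome 2, 155751117 to 155755471, plus strand). Its log2 fold change over all mice was the largest of the 8, though within index series 1 Plaur, F2r and Serpine2 were larger, and differences between genes were not tested. WT mice 1 to 5 read 5.43, 5.82, 3.08, 3.82 and 4.94 CPM, and PBS-treated mice ran from 9.32 to 21.5 CPM with a median of 15.3 CPM. No PBS-treated mouse reached down to WT. The log2 fold change was 1.68 (SE 0.203, adjusted p = 4.03e-08), a 3.20-fold difference, and it was 1.34 and 2.05 within index series 1 and 2.

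RGLS4326 changed none of the 8 genes by the call used. RGLS4326 against PBS gave negative log2 fold changes for all 8, with a median of −0.08 against −0.004 over all genes tested. Counts were 0 higher and 0 lower with edgeR, beside 0.935% and 1.22% of all genes, and 0 with DESeq2. At an unadjusted p under 0.05 there was 1, Procr, and the share of all genes at that threshold was not computed. The 95% intervals of Plau, Plat, F3, F2r and Thbd ended at −0.33 or above on the lower side, while those of Serpine2, Plaur and Procr reached −0.51, −0.59 and −0.66, past the size threshold. Values of both groups overlapped for all 8 genes. Over all genes 0% stood wholly higher with RGLS4326, and the share that stood wholly lower was not computed.

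**Figure D3:**
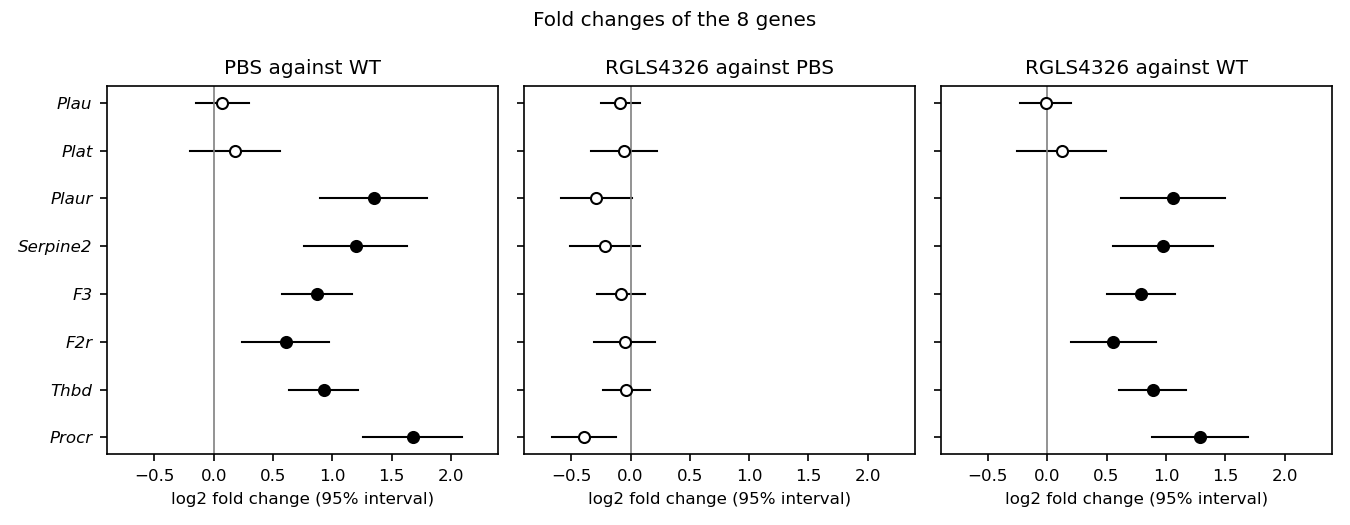
Log2 fold change of each gene (horizontal axis) in 3 comparisons, with 95% intervals as lines. Filled points passed the adjusted p of 0.05 and the size of 0.5. In RGLS4326 against PBS all 8 points are open and lie between −0.39 and −0.04.

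Procr came nearest. RGLS4326-treated mice ran from 6.95 to 17.5 CPM with a median of 10.5 CPM, and 12 of 14 lay below the median of PBS-treated mice. Its log2 fold change was −0.39 (SE 0.131, adjusted p = 0.0421) and passed the adjusted p but not the size. By adjusted p alone 6.66% of all genes were lower. Without RGLS4326 mouse 9, the lowest of the group, it was −0.35 (adjusted p = 0.0686). Leaving out each of the 31 mice in turn kept the adjusted p under 0.05 in 17 fits and not in 14. Within index series 1, 2 and 3 the log2 fold change was −0.19, −0.61 and −0.37, with adjusted p of 1.0, 0.237 and 0.346.

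Plaur in RGLS4326-treated mice ran from 3.32 to 11.3 CPM with a median of 8.63 CPM, and its log2 fold change against PBS was −0.29 (SE 0.146, adjusted p = 0.145). The lowest value was again mouse 9, inside the WT range, while the other 13 mice started at 7.35 CPM. Without it the log2 fold change was −0.22 (adjusted p = 0.207). Serpine2 ran from 33.1 to 99.2 CPM with a median of 57.5 CPM, and its log2 fold change was −0.22 (SE 0.144, adjusted p = 0.269). It was −0.07, −0.60 and −0.01 within the 3 index series, and 11 of 14 mice lay below the PBS median.

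The other 5 genes were nearer to 0 over all mice. Thbd ran from 20.9 to 40.4 CPM with RGLS4326, and its log2 fold change was −0.04 (95% interval −0.23 to 0.16, adjusted p = 0.805). F3 and F2r, which hold a miR-17 seed match, had log2 fold changes of −0.08 (interval −0.28 to 0.12, adjusted p = 0.579) and −0.05 (interval −0.31 to 0.21, adjusted p = 0.794). F3 ran from 25.0 CPM in mouse 9 to 62.1 CPM, beside 36.9 to 60.3 CPM with PBS, and F2r from 32.4 to 59.1 CPM, beside 32.8 to 58.3 CPM with PBS. Without mouse 9 they were at −0.03 and −0.04. Plat and Plau had log2 fold changes of −0.06 (SE 0.136, adjusted p = 0.777) and −0.09 (SE 0.0802, adjusted p = 0.445). Within index series 3 Plau was at −0.32 (adjusted p = 0.189) and F3 at −0.24 (adjusted p = 0.294).

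RGLS4326-treated kidneys also differed from WT, in a comparison that uses the same WT mice as that of PBS. It called 6 of the 8 higher and 0 lower, beside 20.3% and 11.3% of all genes, with a median log2 fold change of 0.84 against 0.004 over all genes. Log2 fold changes were 1.28 for Procr (adjusted p = 3.75e-06), 1.06 for Plaur (0.000112), 0.98 for Serpine2 (0.000171), 0.89 for Thbd (4.26e-06), 0.79 for F3 (2.10e-05) and 0.56 for F2r (0.00656). Plau and Plat were at −0.01 and 0.12 (adjusted p = 0.919 and 0.570). All 14 treated mice lay above all WT mice for Thbd and Procr, as for 5.04% of genes, and 13 of 14 did for Plaur and F3, the exception being mouse 9.

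Without mouse 9 it called 6 genes, with 1.33 for Procr, 1.13 for Plaur and 0.85 for F3. F2r was under the size threshold without WT mouse 1, 2 or 5, at 0.46, 0.41 and 0.49, whereas it was 1.13 (adjusted p = 2.59e-05) without WT mice 3 and 4 and 1.47 (adjusted p = 0.000289) within index series 1. Within index series 1 it also called 6. Within series 2, which holds WT mice 3 and 4 and RGLS4326 mouse 9, 2 were called, beside 2.45% of all genes in that fit against 32.6% within series 1, Serpine2 at 1.06 (adjusted p = 0.0335) and Procr at 1.44 (adjusted p = 0.0227). There F2r was at −0.15 (adjusted p = 0.483), and Plaur at 1.10, F3 at 0.87 and Thbd at 0.40 had adjusted p of 0.0982, 0.0850 and 0.152.

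Levels can be ranked across genes per kilobase of the longest coding transcript. In PBS-treated kidneys Plau stood first at 392 ± 40.4 CPM per kb (SD, n = 12), followed by Serpine2 at 32.8 ± 6.45, F3 at 25.9 ± 3.70 and Plat at 21.3 ± 5.21. F2r followed at 13.2 ± 2.30, Procr at 9.24 ± 2.31, Thbd at 8.54 ± 1.51 and Plaur at 7.03 ± 1.50 CPM per kb. Neighbours other than Plau and Serpine2, and Plat and F2r, overlapped within 1 SD. In WT kidneys Plau stood at 373 ± 72.7 CPM per kb (SD, n = 5), and Plat, at 18.8 ± 7.24, came before Serpine2 at 14.3 ± 5.91 and F3 at 14.2 ± 2.05, all within 1 SD. Then came F2r at 8.69 ± 3.87, Thbd at 4.50 ± 0.757, Procr at 2.89 ± 0.716 and Plaur at 2.76 ± 1.08 CPM per kb, where all neighbours from F3 down overlapped within 1 SD except Thbd and Procr. In RGLS4326-treated kidneys the order was Plau at 369.6 ± 55.7, Serpine2 at 28.2 ± 7.83, F3 at 24.5 ± 5.17 and Plat at 20.5 ± 3.90 CPM per kb (SD, n = 14). F2r at 12.8 ± 2.36, Thbd at 8.34 ± 1.52, Procr at 7.04 ± 1.72 and Plaur at 5.75 ± 1.35 CPM per kb followed, and neighbours other than Plau and Serpine2, Plat and F2r, and F2r and Thbd overlapped within 1 SD. Plau stood above its receptor gene Plaur in each group on this scale.

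The rest of the pathway was read from 50 further genes in 3 lists, of which 44 were tested. Serpinb2, Serpina5, F7, F9, F11 and F2rl2 had too few counts. Between PBS and WT 16 of the 44 were higher and 11 lower, beside 24.6% and 17.8% of all genes. In the plasminogen list, 7 of 18 were higher and 3 lower. Anxa2, a plasminogen-binding annexin, Mrc2, a collagen receptor that binds the urokinase receptor, and Serping1, the C1 inhibitor, had log2 fold changes of 1.98, 1.68 and 1.61. Cpb2, whose product protects fibrin from plasmin, fell from 33.4 ± 3.60 CPM (SD, n = 5) to 1.72 ± 0.399 CPM (SD, n = 12), a log2 fold change of −4.28 (SE 0.523, adjusted p = 4.61e-08). Plg, plasminogen itself, read 3.83 ± 3.30 and 1.98 ± 0.893 CPM, with a log2 fold change of −0.95 (SE 0.446, adjusted p = 0.0553). WT mouse 5, which had the highest hepatocyte marker sum of the WT mice (273 CPM), read 9.69 CPM of Plg, and without it the log2 fold change was −0.25 (adjusted p = 0.636). Plg was called lower in 8 of the 31 fits that each left out 1 mouse, 1 of them without RGLS4326 mouse 9 (−0.95, adjusted p = 0.0195).

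Among clotting factors, 4 of 13 tested were higher and 3 lower between PBS and WT. F5, the cofactor that speeds thrombin formation, rose from 1.94 ± 1.19 CPM (SD, n = 5) to 24.9 ± 6.63 CPM (SD, n = 12), a log2 fold change of 3.68 (SE 0.360, adjusted p = 2.80e-09). F13a1, the fibrin-crosslinking subunit, rose by 1.68 on the log2 scale, while F13b, its carrier subunit, fell by 1.81 and F8 by 0.77. The fibrinogen chains Fgg and Fga rose by 1.37 and 0.61, and Fga was not called without WT mouse 3 (0.53, adjusted p = 0.0559) or WT mouse 4 (0.55, adjusted p = 0.0508). F2, prothrombin, stood at 1.80 ± 1.63 CPM (SD, n = 5) in WT and 0.523 ± 0.492 CPM (SD, n = 12) with PBS, a log2 fold change of −1.77 (adjusted p = 0.0332). Without WT mouse 5, at 4.58 CPM, it was −1.07 (adjusted p = 0.253). The part of hepatocyte transcripts in F2 and Plg was not tested.

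Among inhibitors and thrombin receptors, 5 of 13 tested were higher and 5 lower. Proc, protein C, the ligand of Procr, fell from 315 ± 29.1 CPM (SD, n = 5) to 134 ± 20.9 CPM (SD, n = 12), a log2 fold change of −1.24 (SE 0.114, adjusted p = 1.46e-09), opposite in sign to Procr. Its cofactor Pros1 rose by 1.26. Serpina10, an inhibitor of factor Xa, rose from 2.51 ± 1.28 to 51.1 ± 21.4 CPM, a log2 fold change of 4.35 (SE 0.511, adjusted p = 2.68e-08). F2rl1, protease-activated receptor 2, rose by 1.29. Serpinc1, antithrombin, fell by 1.46, and Tfpi, the inhibitor of tissue factor, fell by 0.51 (adjusted p = 0.0114), just past the size threshold, and was not called in 7 fits that each left out 1 mouse.

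**Figure D4:**
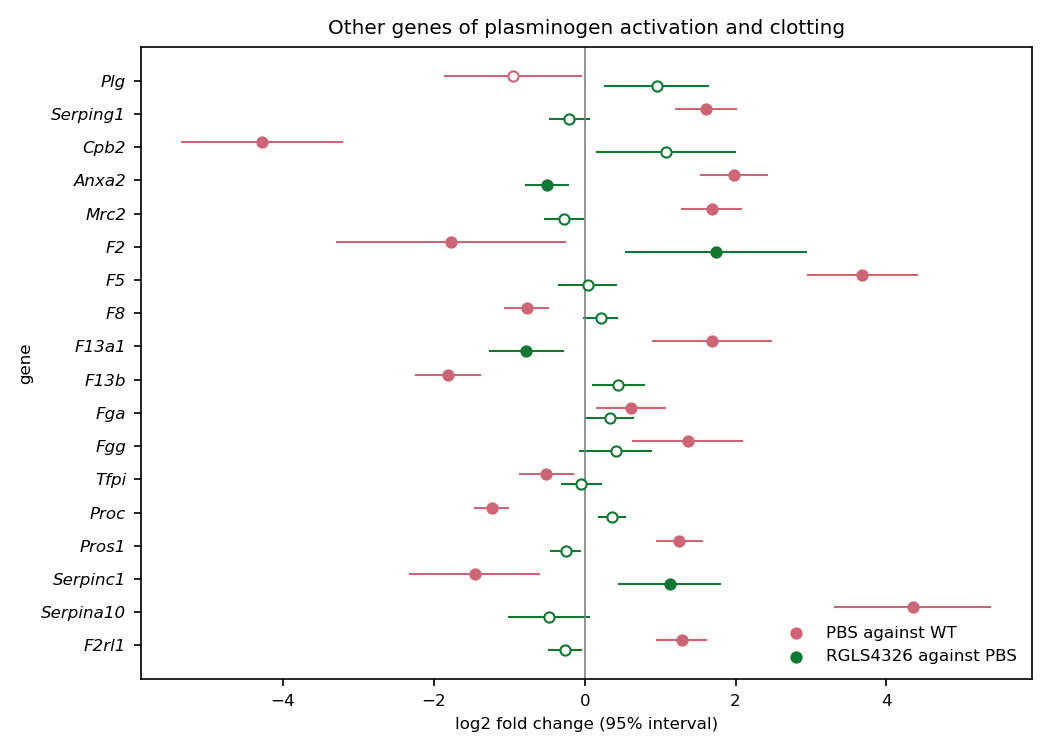
Log2 fold change (horizontal axis) with 95% interval of 18 named genes of the plasminogen and clotting lists, for PBS against WT and for RGLS4326 against PBS. Filled points were called. The PBS points spread from −4.28 for Cpb2 to 4.35 for Serpina10, and of the RGLS4326 points those of F2, Serpinc1, Anxa2 and F13a1 are filled.

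RGLS4326 against PBS called 4 of the 44, 2 higher and 2 lower, beside 0.935% and 1.22% of all genes. Without RGLS4326 mouse 9 it called 0 of them, and likewise 0 without PBS mouse 3, 5, 9 or 10. F2 was higher by 1.74 (adjusted p = 0.0438) with mouse 9 and by 0.93 (adjusted p = 0.166) without it, and Serpinc1 by 1.12 (0.0291) and 0.66 (0.0612). Mouse 9 read 11.7 CPM of F2 and 14 CPM of Serpinc1, where the other RGLS4326-treated mice reached 2.77 and 3.79 CPM. It also had the highest summed level of 6 hepatocyte markers of all 31 mice, 488 CPM, with Alb at 330 CPM, and the next was WT mouse 5 at 273 CPM. The part of these transcripts in the F2, Serpinc1 and Plg values was not tested. Anxa2 was lower by −0.50 (adjusted p = 0.0259), and by −0.44 (0.0359) without mouse 9, under the size threshold. F13a1 was lower by −0.77 (0.0357) and, without mouse 9, by −0.74 (0.0572), and by −0.49 (0.0664) without PBS mouse 12. Leaving out each of the 31 mice in turn, the call was lost in 16 fits for Anxa2, 14 for F2, 11 for F13a1 and 6 for Serpinc1, and Plg was called higher in 10. Proc was higher by 0.36 (adjusted p = 0.0141), under the size threshold, and by 0.30 (0.0199) without mouse 9. Plg stood at 0.95 (adjusted p = 0.0519), and at 0.61 (0.136) without mouse 9, which read 14.7 CPM where the other RGLS4326-treated mice reached 7.69 CPM, and Tfpi at −0.04 (0.826).

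RGLS4326 against WT called 14 of the 44 higher and 8 lower, beside 20.3% and 11.3% of all genes. Without mouse 9 it called 24, adding Anxa5 as higher (0.52) and Serpinc1 as lower (−0.79, adjusted p = 0.0129, from −0.34 with the mouse), and F2 moved from −0.03 to −0.84 (adjusted p = 0.169). Cpb2 was at −3.20 (SE 0.480, adjusted p = 2.68e-06). Mouse 9 read 29.3 CPM of Cpb2, next to the WT range of 29.6 to 38.9 CPM, while the other 13 RGLS4326-treated mice read 1.04 to 2.25 CPM, and without mouse 9 the log2 fold change was −4.31. The same mouse read 3.22 CPM of Serpina10 and 18.6 CPM of F2rl1, both inside the WT ranges.

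Marker genes of cell types moved in the same comparison, and their part in the results was not tested. Injured tubule markers were higher in 6 of 6, macrophage markers in 6 of 7 and fibroblast markers in 6 of 7 between PBS and WT. Summed levels ran from 334 to 862 CPM in WT and from 2854 to 7184 CPM with PBS for injured tubule markers, of which Spp1 and Lcn2 were highest on average over all mice. Fibroblast markers, of which Col3a1 was highest on average over all mice, ran from 144 to 209 CPM and from 533 to 1115 CPM. Macrophage markers, where C1qa was called and Csf1r was at 0.27, ran from 175 to 190 CPM and from 411 to 751 CPM. Of 8 blood endothelium markers 0 were higher and 3 lower, and their sums overlapped, from 337 to 481 CPM in WT and from 240 to 465 CPM with PBS, while Thbd and Procr were higher. Proximal tubule markers were lower in 6 of 6, with Slc34a1 at −1.21. Of 7 distal nephron and collecting duct markers 3 were higher and 3 lower, with Aqp2 at 2.30, and of 5 podocyte markers 2 were higher. Of 4 neutrophil and platelet markers tested 1 was higher, and their sums, from 11.3 to 13.9 CPM in WT and from 11.9 to 15.7 CPM with PBS, overlapped. Hepatocyte markers were lower in 4 of 6. RGLS4326 against WT gave the same counts for injured tubule, macrophage, fibroblast and proximal tubule markers. RGLS4326 against PBS called 0 in these 4 lists, although without mouse 9 the macrophage marker Adgre1 was called higher (0.53, adjusted p = 0.0329). In that comparison 1 of 7 distal nephron and collecting duct markers, Aqp2 at −0.56 and −0.50 without mouse 9, and 1 of 4 neutrophil and platelet markers, Pf4 at −0.96 and −0.90 without mouse 9, were lower. Of 6 hepatocyte markers 2 were higher, Alb at 1.48 and Apoa2 at 1.65, and without mouse 9 they were at 0.81 (adjusted p = 0.161) and 0.85 (adjusted p = 0.152). No list had a gene at 0 in all mice.

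Partners were compared across the 26 Pcy/CD1 mice, as log2(CPM + 1) with each group's mean removed, in 4 pairs chosen by function. How many other gene pairs reach a similar r was not computed, so a pair's r is not shown to be particular to it. Plat and its inhibitor Serpine2 went together, with Pearson's r of 0.499 (permutation p = 0.00813, adjusted over the 4 pairs 0.0163) and Spearman's rho of 0.552 (permutation p = 0.00354, adjusted 0.0142). Without the 2 mice farthest from the median of Plat, PBS mice 6 and 12, r was 0.404 (permutation p = 0.0529) and rho 0.481 (permutation p = 0.0178). Over the remaining mice Pearson's r thus missed the threshold, while rho passed it. With index series means removed r was 0.560 (permutation p = 0.00623). Within index series 1, 2 and 3, r was 0.872, 0.336 and 0.738, with exact permutation p of 0.0278, 0.366 and 0.0514. Without RGLS4326 mouse 9, highest of its group in Plat and second lowest in Serpine2, r was 0.628.

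Thbd and Procr had r of 0.517 (permutation p = 0.00804, adjusted 0.0163) and rho of 0.424 (permutation p = 0.0342, adjusted 0.0684). Without the 2 mice farthest from the median of Thbd r was 0.432 (permutation p = 0.0356) and rho 0.317 (permutation p = 0.128), and without RGLS4326 mouse 9 r was 0.426 (permutation p = 0.0383). Within index series it was 0.280, 0.422 and 0.527, none with an exact permutation p under 0.05 at 8 or 9 mice, so it was positive in each series but not shown within any. With index series means removed it was 0.417 (permutation p = 0.067). F3 and F2r had r of 0.327 (permutation p = 0.114) and Plau and Plaur had r of −0.029 (permutation p = 0.899), so urokinase and its receptor showed no relation past the threshold at this number of mice.

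**Figure D5:**
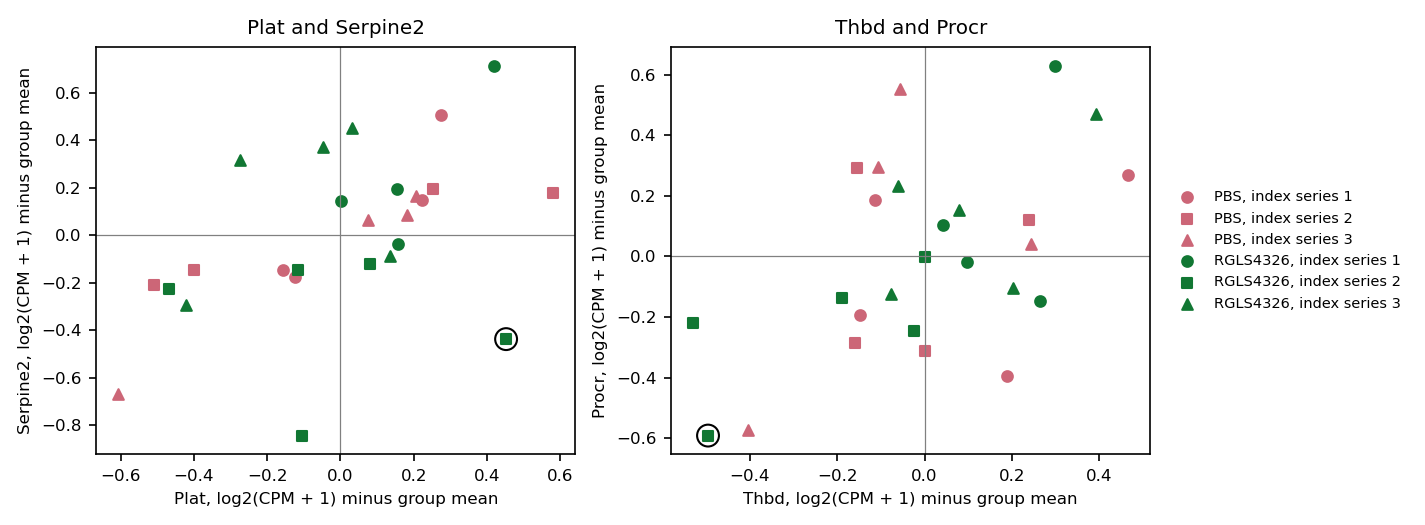
Serpine2 against Plat and Procr against Thbd in 26 Pcy/CD1 mice, each axis log2(CPM + 1) minus the mean of the mouse's group. Colours are groups, shapes are index series and the black ring marks RGLS4326 mouse 9, which lies far to the lower right in the first panel and at the lower left in the second.

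Across all 31 mice with group means removed, the genes most like each of the 8 were listed from 13784 genes of at least 1 CPM, as a description with libraries shared by every point. Procr was most like Rasa4 (r = 0.907), Plekha4 and Htra3, and Plat most like Rtn1 (r = 0.898), Cpne2 and Serpina3n. Plaur was most like Fosl2 (r = 0.894), Krt18 and Ercc1, and F3 most like Serpina10 (r = 0.885), Myl12a and Clcf1. Without RGLS4326 mouse 9 the order of the 3 stayed for Procr and changed for Plat, Plaur and F3. Serpina3n (0.841) passed Cpne2 (0.834) for Plat, and Krt18 (0.864) passed Fosl2 (0.844) for Plaur. For F3, Myl12a (0.832) and Clcf1 (0.818) passed Serpina10 (0.815). Thbd was most like Col6a2 (r = 0.882), Colec12 and Srgn, Serpine2 most like Steap3 (r = 0.836), Clip3 and Fzd2, and F2r most like St3gal1 (r = 0.818), Mef2c and Col8a1. Plau had the weakest likeness, to Wbscr27 at r = 0.648, 4931408D14Rik and Ccdc17. Without mouse 9 Col8a1 came first of the 3 for F2r (0.878), 4931408D14Rik for Plau (0.711) and Fzd2 for Serpine2 (0.832).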

How the data were processed

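Kidney polyA RNA of 31 mice was sequenced with a stranded mRNA kit. The authors trimmed reads, mapped them with STAR to GRCm38 and counted uniquely mapped reads per gene with HTSeq 0.6.1 (submitters' processing notes, which also name FastQC 0.11.2, SAMtools 1.1 and Picard 1.119). The deposited values are raw counts for 23509 genes, with no normalization. The strand setting and the annotation used for counting are not given in the sources used here. Reads counted as outside genes or ambiguous were left out. They made up 10.8% to 12.9% of these reads and the counts in genes together. Reads not aligned uniquely are not in that total and were also left out.

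Groups and replicate numbers were taken from the labels. After filterByExpr and TMM scaling, all 31 mice entered 1 quasi-likelihood fit with a mean for each group (edgeR 4.0.16, run under R 4.3.3). Adjusted p-values are from its test with Benjamini-Hochberg adjustment over all 15185 genes, and the thresholds of 0.05 and 0.5 follow the study. Standard errors were derived from the fold change and its F statistic and are approximate. P-values of correlations are 2-sided, from 100000 permutations within groups, or exact within an index series. The 3 comparisons share groups, so their values are not independent. The steps were tested on simulated counts.

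The 8 genes, the pathway lists and the marker lists were chosen with earlier results of these data known. Named pathway genes were Plg, F2, Proc and Tfpi, and up to 4 called genes with the smallest p per list and comparison, with 1 listed gene counted but not reported here by name. Marker genes are named from the 3 of highest mean level in their list, apart from Adgre1 and Apoa2, named because a comparison called them. Adgre1 was read under its older symbol, and Ly6g had no row. Alternatives covered the filter, normalization, DESeq2 1.42.0, mice in the fit, index series, replicate number, threshold on size and pseudocounts. Each mouse is taken from the labels as a separate animal. Plaur rested on the fewest counts of the 8 in 1 mouse, 36 in WT mouse 1.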

Additional observations from a re-analysis of the deposited data

Results flagged for a closer look

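F3 in WT mouse 5, at 33.0 CPM, was flagged as a sample far from the others of its group. The other WT mice lay at 23.4 to 26.1 CPM, and the gap to the nearest made up 0.718 of the group's range, just above the critical 0.71 of Dixon's test for 5 samples. In all, 8 sets of 5 WT values were tested, and chance flags about 1 in 20 such sets. WT mouse 5 also had the highest Serpine2 (52.9 CPM) and Plaur (6.14 CPM) of its group.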

How the results depend on the processing

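Of 272 refits of the 8 genes under other settings, 252 kept their direction and side of the threshold, and of 744 refits with 1 mouse left out 731 did. Genes higher than WT were 5 or 6 of 8 with PBS under every alternative, and with RGLS4326 6 of 8 except for 2 within index series 2 (where the genes called over all fell from 4789 to 372), and 5 or 6 of 8 with 1 mouse left out. RGLS4326 against PBS called 0 of 8 with any mouse left out, and 1 (Procr) with no threshold on size. Of the 44 other pathway genes, this comparison called 4, but 0 within each of index series 1, 2 and 3, 2 without WT mice 3 and 4, 8 with no threshold on size, and 0 to 6 with 1 mouse left out. RGLS4326 against WT called 22 of them, but 2 within index series 2, and 20 to 24 with 1 mouse left out. Over all genes, RGLS4326 against PBS called 327, 210 with only both Pcy/CD1 groups fitted, 2402 with no threshold on size, 145 without RGLS4326 mouse 9 and 0 within each index series. The cause was not tested.

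The genes whose fold change turned sign were near 0 in the comparison concerned, apart from F2r. Within index series 1 log2 fold changes turned to −0.036 for Plau (PBS against WT), and for RGLS4326 against PBS to 0.086 for Plat, 0.073 for F3, 0.083 for F2r and 0.021 for Thbd. Within index series 2 they turned to −0.051 (PBS against WT) and −0.15 (RGLS4326 against WT) for F2r, and for Plau to 0.073 (RGLS4326 against PBS) and 0.41 (RGLS4326 against WT). In index series 3 Thbd was at 0.14 (RGLS4326 against PBS). Plau against WT was at 0.013 with RGLS4326 when genes of at least 1 CPM were kept, and at −0.065 with PBS without WT mice 3 and 4, where Plat with RGLS4326 was at −0.016. With 1 mouse left out, RGLS4326 against PBS ran from −0.10 to 0.0054 for Plat and from −0.070 to 0.014 for Thbd, and RGLS4326 against WT from −0.077 to 0.077 for Plau and from −0.031 to 0.28 for Plat.

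Same replicate numbers did not pair the mice. Deviations of same-numbered PBS and RGLS4326 mice had a mean correlation of −0.0928 over 12 numbers, with 4 over 0.1. With the replicate number as a block, 6 of 8 genes were called against WT with PBS and 6 with RGLS4326, and 0 between treated groups, where 0 of 44 pathway genes and 43 genes in all were called. Under the block log2 fold changes turned to 0.0056 for Plat and 0.0082 for F2r (RGLS4326 against PBS) and 0.053 for Plau (RGLS4326 against WT).

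The correlation of Plat and Serpine2 missed the threshold without the 2 farthest mice (0.404) and within index series 2 (0.336) and 3 (0.738), and lay between 0.401 and 0.628 when single mice were left out. That of Thbd and Procr missed it with index series means removed (0.417) and within series 1 (0.280), 2 (0.422) and 3 (0.527), and ran from 0.426 to 0.584. Plau and Plaur turned to 0.13 with series means removed and to 0.240 and 0.53 in series 2 and 3, from −0.124 to 0.033 with 1 mouse left out, and F3 and F2r turned to −0.135 in series 3.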
